A study of Homo sapiens with 21 samples.

Results

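Long noncoding RNA genes of 2 kinds were followed across the tumors, 3 genes whose RNA stays in the nucleus (MALAT1, NEAT1 and KCNQ1OT1) and 7 genes that host small nucleolar RNAs, or snoRNAs (GAS5, SNHG1, SNHG5, SNHG6, SNHG8, SNHG12 and EPB41L4A-AS1). They were chosen as abundant long noncoding RNAs by the gene symbol given in the table of raw counts, 10 genes of 60651, and all 10 passed the filter on low counts in every comparison. RNA was sequenced from 21 subcutaneous tumors of A549-Luc2 cells, a luciferase-carrying derivative of the human lung adenocarcinoma line A549, which had been injected with Matrigel into the hind flank of female athymic nu/nu mice aged 6 to 8 weeks. Mice were randomized to 10 per group at a mean tumor size of 80 to 100 mm3 and were given the oxysterol Oxy186 at 50 mg/kg, the oxysterol Oxy210 at 50 mg/kg, or the formulation alone (Control), each by daily oral gavage. The sequenced tumors numbered 7 in each group. The tumors come from 1 cell line, and their human cells were mixed with vessels and stroma of the mouse host, which has no mature T cells.

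MALAT1 gathers in nuclear speckles, bodies rich in splicing factors, and was first described in lung adenocarcinoma. NEAT1 is the scaffold of paraspeckles, nuclear bodies that hold RNA-binding proteins, and KCNQ1OT1 is an unspliced antisense RNA that silences its neighbors in the imprinted domain around KCNQ1. A snoRNA host gene is spliced, its snoRNAs are cut from the introns and guide the chemical modification of ribosomal RNA, and the spliced host RNA is often removed in the cytoplasm by nonsense-mediated decay. Many host genes begin with a run of pyrimidines, as do the genes of ribosomal proteins, and GAS5 was named for its rise in growth-arrested cells.

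In GENCODE 44 on GRCh38, MALAT1 lies at chr11:65497640-65508073 and NEAT1 at chr11:65422774-65445540, both on the plus strand and each covered by exon along its whole span. KCNQ1OT1 lies on the minus strand at chr11:2597308-2700003, within the KCNQ1 locus. Of the hosts, SNHG1 is on chromosome 11 as well, and the others are on other chromosomes, with GAS5 at chr1:173858559-173868882, SNHG12 at chr1:28578538-28583132, SNHG1 at chr11:62851978-62855953 and SNHG5 at chr6:85650491-85678932, all on the minus strand, as is SNHG6. SNHG8 at chr4:118278703-118285316 and EPB41L4A-AS1 at chr5:112160526-112164818 are on the plus strand. Exons of an antisense protein-coding gene overlapped 58.9% of the exon bases of SNHG6 (MCMDC2), 51.3% of those of EPB41L4A-AS1 (EPB41L4A) and 37.6% of those of SNHG8 (PRSS12). Whether reads were counted by strand is not stated, so reads of these 3 hosts and their partners cannot be told apart. Genes on the same strand, among them the pseudogene PKMP3 in SNHG5, overlapped 13.7% of the exon bases of SNHG5 and 15.4% of those of SNHG1. Per tumor the antisense partners held 23 to 55 reads (MCMDC2), 13 to 50 (PRSS12) and 171 to 400 (EPB41L4A). Their hosts SNHG6, SNHG8 and EPB41L4A-AS1 held 1009 to 4406, 578 to 1157 and 315 to 897. EPB41L4A was thus not low beside its host, and these counts do not measure how many reads the overlaps hold.

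Promoters from RefSeq (GRCh38.p14) were found for 7 of the 10 genes. The first 4 windows below belong to hosts described most fully in the comparisons that follow, and the last to the second annotated start of MALAT1. Each runs from 60 bases before the annotated start to 20 bases from it, and the capitals mark TATAA between 45 and 15 bases before the start and CTTT within 10 bases of it.
SNHG5: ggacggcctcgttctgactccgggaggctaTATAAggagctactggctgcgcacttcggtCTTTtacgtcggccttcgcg
SNHG8: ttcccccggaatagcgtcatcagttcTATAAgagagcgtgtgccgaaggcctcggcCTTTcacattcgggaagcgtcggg
SNHG12: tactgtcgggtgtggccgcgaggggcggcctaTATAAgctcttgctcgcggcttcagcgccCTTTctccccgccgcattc
EPB41L4A-AS1: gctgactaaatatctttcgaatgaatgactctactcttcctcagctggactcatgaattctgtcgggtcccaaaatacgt
MALAT1: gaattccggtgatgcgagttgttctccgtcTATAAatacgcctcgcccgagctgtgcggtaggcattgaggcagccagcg

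These windows are chr6:85678714-85678793, chr4:118278702-118278781, chr1:28581854-28581933, chr5:112160466-112160545 and chr11:65498985-65499064, each read on the strand of its gene. Searched on both strands, TATAA stood in its window in 4 of the 7 genes (MALAT1, SNHG5, SNHG8 and SNHG12) and in 5.04% of 35116 promoters of the same length. CTTT stood near the start in 3 of the 7 (SNHG5, SNHG8 and SNHG12) and in 15.0% of all promoters. EPB41L4A-AS1 held neither in these windows.

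Among genes with a row in the raw counts, GENCODE 44 places 16 snoRNA gene entries inside 6 of the 7 hosts. SnoRNAs without such a row were left out, so this is not a full list. GAS5 had none in this set, and SNORA16A enters under separate IDs with the same start. Those of box C/D guide 2'-O-methylation, and those of box H/ACA guide pseudouridylation. The 5 below, 1 from each of 5 hosts, show what these hosts carry, with the C box TGATGA where found and the D box CTGA in capitals for box C/D, and the ACA near the 3' end for box H/ACA.
SNORD50B in SNHG5: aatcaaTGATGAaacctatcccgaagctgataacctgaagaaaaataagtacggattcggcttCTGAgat
SNORD27 in SNHG1: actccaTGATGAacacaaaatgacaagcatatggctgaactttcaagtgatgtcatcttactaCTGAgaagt
SNORD99 in SNHG12: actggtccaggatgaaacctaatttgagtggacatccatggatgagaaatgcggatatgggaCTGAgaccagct
SNORA24 in SNHG8: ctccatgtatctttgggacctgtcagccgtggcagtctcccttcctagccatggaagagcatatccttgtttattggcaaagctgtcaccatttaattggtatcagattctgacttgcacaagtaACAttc
SNORA13 in EPB41L4A-AS1: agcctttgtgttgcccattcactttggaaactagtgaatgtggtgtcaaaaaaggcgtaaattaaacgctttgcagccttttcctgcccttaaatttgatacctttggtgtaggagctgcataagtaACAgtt

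They lie at chr6:85677589-85677658, chr11:62855012-62855083, chr1:28578749-28578822, chr4:118279190-118279320 and chr5:112161485-112161617. In the raw counts 14 of the 16 snoRNA genes held 0 reads in every tumor, and the others were SNORD99, with 6 to 23 reads, and SNORA13, with 1 to 9. Of the 16 snoRNA genes 15 lie wholly inside annotated exons of their host, so reads of these 15 and of the hosts cannot be told apart. SNORD99 lies outside the exons of SNHG12.

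Total counts ranged from 13787493 to 17865119 per tumor. All 6 markers of A549 cells (EPCAM, KRT7, KRT8, KRT18, AKR1B10 and AKR1C1) were high in every group, with a summed level of 8780 to 17695 CPM (counts scaled to the size of the library). Of 10 markers of endothelium, leukocytes and fibroblasts, PECAM1, DCN and LUM had a median of at least 1 CPM, while VWF, CD3E and COL1A2 were at 0 in 18, 16 and 17 tumors. Tumors differed in how log2 CPM depended on the GC content of exons, by a slope of -0.51 to -0.18 per 10 percentage points in Oxy186 r1-r4 and of -0.15 to 0.40 in Control. The exon GC content of the 10 genes was 38.8% (SNHG6) to 51.1% (SNHG12).

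NEAT1 was the most abundant of the 10 in reads, with 12925 to 42584 per tumor, followed by MALAT1 with 3954 to 15005. KCNQ1OT1 had the fewest, 85 to 244. The hosts lay between, from 3490 to 7703 for GAS5 down to 273 to 653 for SNHG12. Since exon lengths ran from 2.53 kb (SNHG6) to 92.6 kb (KCNQ1OT1), levels of different genes were compared per kb of exon. For SNHG1, SNHG8 and EPB41L4A-AS1 the annotated exons covered the whole span of 3976, 6614 and 4293 bases. Their longest transcripts, at 3771, 6166 and 3511 bases, were nearly as long. Spliced forms are shorter, so levels per kb of these hosts may be too low and the order is approximate.

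As log2 CPM per kb over the 21 tumors, the order was GAS5 with 6.11 ± 0.32 (SD), NEAT1 with 6.08 ± 0.44, MALAT1 with 5.71 ± 0.46, SNHG6 with 5.65 ± 0.46, SNHG1 with 5.01 ± 0.18, SNHG5 with 4.71 ± 0.43, EPB41L4A-AS1 with 3.02 ± 0.44, SNHG8 with 2.97 ± 0.36, SNHG12 with 2.72 ± 0.38 and KCNQ1OT1 with -3.08 ± 0.32. Neighbors in this order differed by more than the spread of their difference between NEAT1 and MALAT1 (higher in 19 of 21 tumors), SNHG6 and SNHG1 (21 of 21), SNHG5 and EPB41L4A-AS1 (21 of 21) and SNHG12 and KCNQ1OT1 (21 of 21). The other 5 neighboring pairs did not. GENCODE 44 lengths were used for counts made on GENCODE 37, and with the longest transcript in place of all exons SNHG5 moved from 4.71 to 5.84 and SNHG6 to 6.12, which put SNHG6 before NEAT1 and SNHG5 before MALAT1.

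The spread between tumors differed among the 10. SNHG1 was the steadiest, with an SD of 0.18 on the log2 CPM scale and 8.85% of 10629 expressed genes below it, and its highest tumor stood 1.61-fold above its lowest. MALAT1 (SD 0.46, 83.2% of genes below it), SNHG6 (0.46) and NEAT1 (0.44) were the most variable, against a median of 0.29 over those genes, and SNHG6 spanned 4.60-fold. KCNQ1OT1 (0.32) and GAS5 (0.32) lay near the middle of all genes.

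MALAT1 had a log2 CPM of 8.05 to 9.69 in Control (median 8.89), 8.44 to 9.69 with Oxy186 (median 9.19) and 8.46 to 9.89 with Oxy210 (median 9.11). NEAT1 had 9.85 to 11.25 (median 10.68), 9.83 to 11.46 (median 10.73) and 10.01 to 10.94 (median 10.57) in the same order. The groups overlapped over most of their ranges for both RNAs, and Control r6 had the lowest MALAT1 and the lowest KCNQ1OT1 of all 21 tumors. KCNQ1OT1 had 2.54 to 3.59 in Control (median 3.44), 3.23 to 3.91 with Oxy186 (median 3.48) and 3.19 to 3.96 with Oxy210 (median 3.60), with 4 of 7 Oxy210 tumors above the highest Control tumor. Together the 3 nuclear RNAs took 0.121% to 0.378% of all counts and the 7 hosts 0.0803% to 0.146%.

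**Figure D1:**
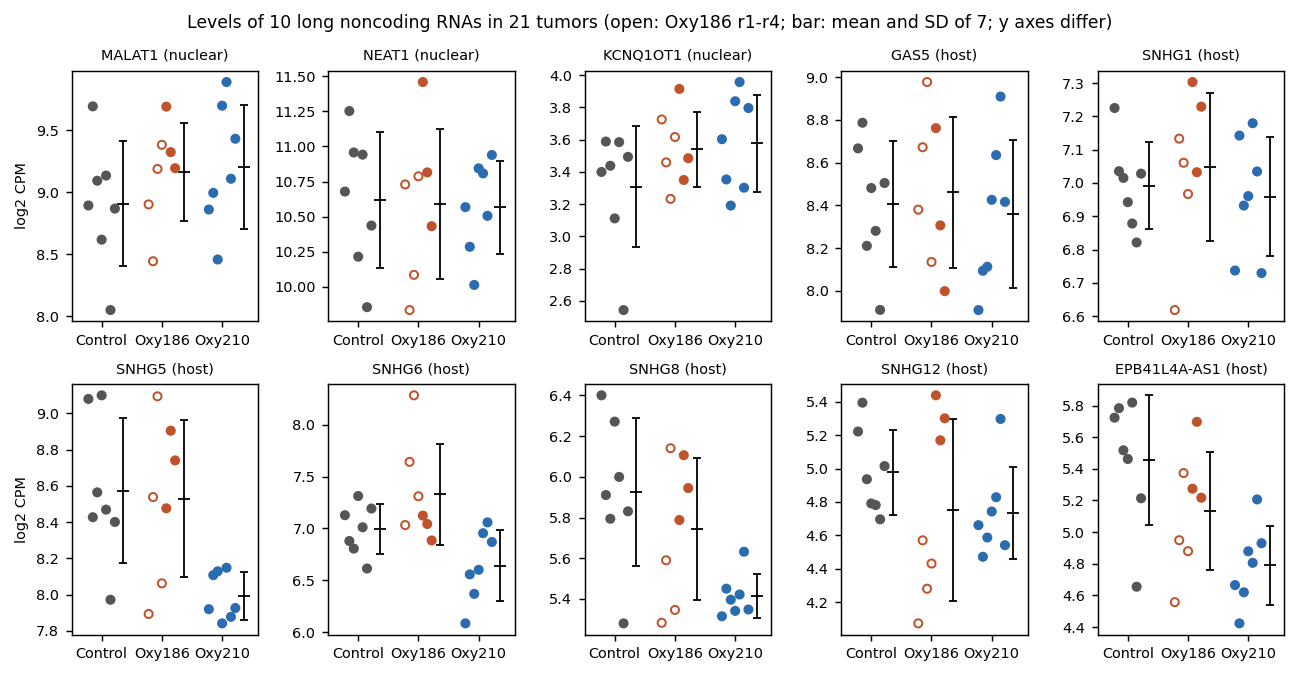
Log2 CPM of each of the 10 RNAs (y axis, its own range in each panel) in the 7 tumors of each group (x axis). Points are tumors, open points are Oxy186 r1-r4 and bars are the mean and SD of 7. SNHG5, SNHG8 and EPB41L4A-AS1 sit low in all 7 Oxy210 tumors, with Control r6 as the only Control tumor among them, and SNHG12 is lower in Oxy186 r1-r4 than in every Control tumor.

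Among the hosts, SNHG5 had a log2 CPM of 7.97 to 9.10 in Control (median 8.47), 7.89 to 9.09 with Oxy186 (median 8.54) and 7.84 to 8.15 with Oxy210 (median 7.93). SNHG8 had 5.28 to 6.40 (median 5.91), 5.28 to 6.14 (median 5.79) and 5.31 to 5.63 (median 5.40). EPB41L4A-AS1 had 4.65 to 5.82 (median 5.52), 4.56 to 5.70 (median 5.22) and 4.42 to 5.21 (median 4.81). For each of these 3 hosts, 6 of 7 Control tumors lay above the highest Oxy210 tumor, and the exception was Control r6 each time. Control r6 was the lowest Control tumor for every gene followed here, the nuclear RNAs included. Oxy210 and Control did not overlap at all for 0.165% of 16396 genes. The share of all genes with 6 of 7 Control tumors above was not counted, so the pattern may not be particular to these hosts. SNHG6 had 6.61 to 7.31 in Control (median 7.01), 6.88 to 8.28 with Oxy186 (median 7.12) and 6.08 to 7.06 with Oxy210 (median 6.60). SNHG12 had 4.70 to 5.39 (median 4.94), 4.07 to 5.44 (median 4.57) and 4.47 to 5.30 (median 4.66). The Oxy186 tumors were divided for SNHG12, which was lower in each of r1-r4 than in r5-r7, and the 3 highest SNHG6 values were those of r2, r3 and r4, while r1 (7.03) lay among r5-r7 (6.88 to 7.12). GAS5 (7.91 to 8.79, 8.00 to 8.98 and 7.91 to 8.91 in Control, Oxy186 and Oxy210) and SNHG1 (6.82 to 7.22, 6.62 to 7.30 and 6.73 to 7.18) covered nearly the same range in each group.

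By Pearson r of log2 CPM over the 21 tumors, the nuclear RNAs varied together, and so did several hosts. In that setting no nuclear RNA was related to a host beyond the threshold. Over the 45 pairs of genes, 10 passed at an adjusted p at or under 0.05 (Pearson r over 21 tumors, two-sided permutation test, Benjamini-Hochberg over the 45 pairs). They were 3 of 3 nuclear pairs, 7 of 21 host pairs and 0 of 21 pairs of a nuclear RNA with a host, and the median r of the 3 kinds was 0.79, 0.48 and 0.0859. Within groups, r of the nuclear-host pairs ran from 0.00356 to 0.86 in Control, from -0.72 to 0.52 with Oxy186 and from -0.50 to 0.60 with Oxy210. The difference between the kinds of pair was not itself tested, and values of 1 tumor share its library.

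MALAT1 and NEAT1 had r = 0.80 and rho = 0.74 (permutation p = 2e-05 and 0.00021, adjusted p = 0.000225 and 0.00315). MALAT1 and KCNQ1OT1 had r = 0.79 and rho = 0.66 (permutation p = 2e-05 and 0.00162, adjusted 0.000225 and 0.0121), and NEAT1 and KCNQ1OT1 had r = 0.72 and rho = 0.67 (permutation p = 0.00016 and 0.00123, adjusted 0.00144 and 0.0111). All 3 pairs kept their direction within each group, at r = 0.87 to 0.97 in Control, 0.34 to 0.81 with Oxy186 and 0.87 to 0.90 with Oxy210. Without the 2 tumors farthest from the median of the first gene, r was 0.80, 0.63 and 0.73 (permutation p = 0.00013, 0.00379 and 0.00032).

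Among hosts the closest pair was SNHG5, host of SNORD50B, with SNHG8, host of SNORA24, at r = 0.93 and rho = 0.86 (permutation p = 1e-05 for both, the smallest these permutations can give, adjusted 0.000225 for both). SNHG8 and EPB41L4A-AS1 had r = 0.87 and rho = 0.85 (permutation p = 1e-05 for both), and SNHG5 and EPB41L4A-AS1 had r = 0.72 and rho = 0.70 (permutation p = 0.00028 and 0.00059, adjusted 0.0021 and 0.00664). These 3 genes are on chromosomes 6, 4 and 5. Without the 2 tumors farthest from the median of the first gene, r was 0.91, 0.87 and 0.73. Within groups the relation of SNHG5 to SNHG8 was r = 0.94 in Control and 0.97 with Oxy186 and 0.00568 in the Oxy210 tumors, in which SNHG5 ran only from 7.84 to 8.15. The relation of SNHG5 to EPB41L4A-AS1 was 0.58, 0.87 and -0.63 in the 3 groups.

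The other 4 host pairs that passed were GAS5 with SNHG6 (r = 0.67, adjusted permutation p = 0.00315), SNHG12 with EPB41L4A-AS1 (r = 0.61, adjusted permutation p = 0.019), SNHG1 with SNHG12 (r = 0.59, adjusted permutation p = 0.019) and SNHG5 with SNHG6 (r = 0.59, adjusted permutation p = 0.019). GAS5 and SNHG6 kept their direction within each group, at r = 0.60, 0.75 and 0.93, and had r = 0.49 without the 2 farthest tumors (permutation p = 0.0319). SNHG12 and EPB41L4A-AS1 had r = 0.58 without them (permutation p = 0.0102). The last 2 pairs had r = 0.44 and 0.42 without them (permutation p = 0.063 and 0.0762), and by Spearman's rho neither passed (adjusted permutation p = 0.067 for both). With the GC slope regressed out both passed by r (adjusted permutation p = 0.0127 and 7.5e-05) and by rho (adjusted permutation p = 0.0123 and 0.00015). SNHG6 and SNHG12 had a negative r, -0.11, which did not pass.

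**Figure D2:**
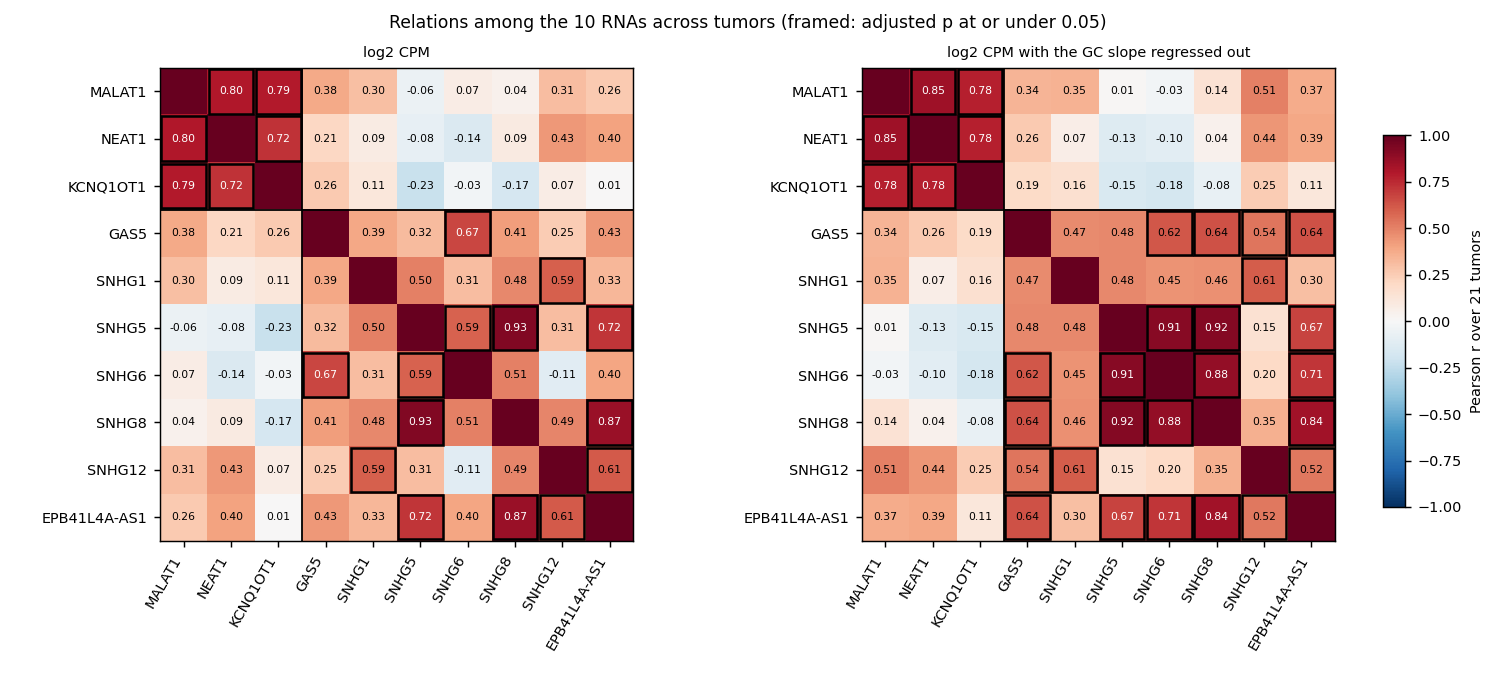
Pearson r over 21 tumors for each pair of the 10 RNAs, on log2 CPM (left) and after each tumor's GC slope was regressed out (right). Colors run from blue (-1) to red (1), frames mark adjusted p at or under 0.05, and lines separate the 3 nuclear RNAs from the 7 hosts. The nuclear block is framed throughout in both panels, 7 host pairs are framed on the left and 12 on the right, and no nuclear-host pair is framed.

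**Figure D3:**
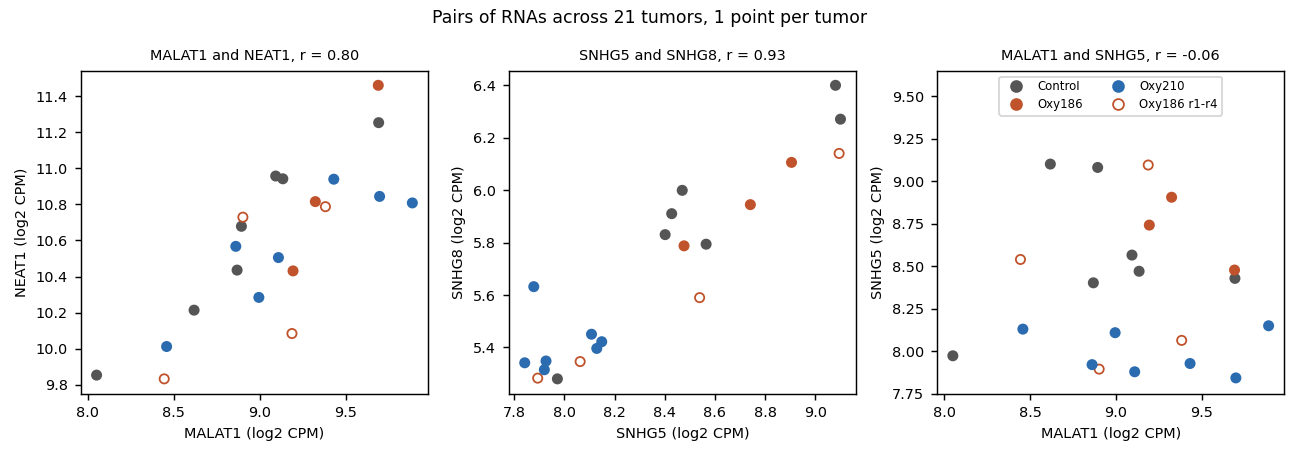
Log2 CPM of 2 RNAs against each other in 3 panels, 1 point per tumor, colored by group with Oxy186 r1-r4 open. MALAT1 and NEAT1 rise together (r = 0.80), SNHG5 and SNHG8 rise together with all Oxy210 tumors at the low end (r = 0.93), and MALAT1 and SNHG5 show no such pattern (r = -0.0571).

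With each tumor's GC slope regressed out, 15 of 45 pairs passed by r, among them all 10 above. By rho 15 passed as well, and 1 of them was a nuclear-host pair, MALAT1 with SNHG12. It had rho = 0.59 (adjusted permutation p = 0.0202) and r = 0.51 (adjusted permutation p = 0.0565). The pairs of SNHG6 moved most, from r = 0.59 to 0.91 with SNHG5 and from 0.51 to 0.88 with SNHG8. With group means removed 12 pairs passed, 9 of them among the 10. One was a nuclear-host pair, MALAT1 with EPB41L4A-AS1, at r = 0.585 (adjusted permutation p = 0.0254) against 0.26 before.

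None of the 10 genes was related to the GC slope itself over 21 tumors after adjustment over the 10. SNHG12 came nearest, with r = 0.54 and rho = 0.46 (permutation p = 0.0121 and 0.0383, adjusted 0.121 and 0.174), followed by SNHG6 with r = -0.48 and rho = -0.39 (permutation p = 0.026 and 0.0789, adjusted 0.13 and 0.174). Without Oxy186 r3 and r4, the 2 tumors of most extreme slope, r was 0.40 and -0.19. Within groups, of 30 values that were not adjusted, 5 had a two-sided exact permutation p under 0.05. They were MALAT1 (r = -0.93, exact p = 0.00516), NEAT1 (-0.79, exact p = 0.0302), SNHG6 (-0.79, exact p = 0.0359) and GAS5 (-0.78, exact p = 0.0391) in the Oxy210 tumors, and SNHG12 (0.82, exact p = 0.0351) with Oxy186. MALAT1 had 0.14 in Control and 0.25 with Oxy186.

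The genes most like the 3 nuclear RNAs and 1 host, GAS5, over the 21 tumors were ranked by r among the 10619 other genes that averaged 3 or more in log2 CPM. For MALAT1 they were SRSF5 (0.86), a splicing factor, LINC00672 (0.85), GOLGA6L5P (0.84), AUXG01000058.1 (0.84) and NKTR (0.83). NEAT1 was followed by TPT1-AS1 (0.89), ENOSF1 (0.88), LINC00342 (0.87), KCTD7 (0.87) and SH3BP2 (0.87), and KCNQ1OT1 by ZNF548 (0.81), AL157392.3 (0.81), GOLGA6L5P (0.81), SH3BP5-AS1 (0.81) and TNFSF15 (0.80). For GAS5 they were EEF1A1 (0.89), a translation elongation factor whose gene hosts a snoRNA, ZFAS1 (0.88), another long noncoding snoRNA host, CCNB1IP1 (0.80), EIF3E (0.77), a translation initiation factor, and 1 gene on a sex chromosome that is not named. With the GC slope regressed out the lists began with HOXB3 (0.89) for MALAT1, WSB1 (0.93) for NEAT1, ATG2B (0.89) for KCNQ1OT1 and ZFAS1 (0.89) for GAS5. SRSF5 and NKTR stayed among the first 5 for MALAT1, as did EEF1A1, ZFAS1 and EIF3E for GAS5, to which RPL15 (0.80) and RPL22 (0.79), genes of ribosomal proteins, were added. These are the highest of many values and are given without a test.

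Oxy186 against Control asked whether the compound changed these RNAs. By edgeR's quasi-likelihood test 0 of the 10 passed, as did 0% of 16291 genes (smallest adjusted p = 0.862), and before adjustment 618 genes (3.79%) and 0 of the 10 were under 0.05. The largest differences on the log2 scale were 0.38 for SNHG6 (95% interval -0.02 to 0.78) and -0.35 for EPB41L4A-AS1 (-0.74 to 0.05). MALAT1 and KCNQ1OT1 both differed by 0.20 (-0.25 to 0.65 and -0.17 to 0.56), and NEAT1 by -0.03 (-0.55 to 0.48). Groups overlapped for all 10, and 0.0123% of genes had groups that did not overlap. In tumors, fewer cells that express a gene and less of its RNA per cell cannot be told apart, and the p-values measure the spread between these tumors alone.

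In Oxy210 against Control all 7 hosts lay below 0, beside a median of 0.00857 over all genes. Of these hosts GAS5 (-0.0114) and SNHG1 (-0.00495) were near 0 and changed sign in 7 and 6 of 25 alternatives. The nuclear RNAs did not share a direction. By edgeR 0 of 10 genes and 0% of 16396 genes passed (smallest adjusted p = 0.204). EPB41L4A-AS1 differed by -0.67 (SE 0.16, 95% interval -1.01 to -0.32), SNHG5 by -0.60 (SE 0.14, -0.90 to -0.30) and SNHG8 by -0.52 (SE 0.13, -0.80 to -0.24), each with an adjusted p of 0.207 to 0.212 by edgeR. All 7 Oxy210 tumors were below the Control median for each of these 3, and the share of all genes with this pattern was not counted. The 3 hosts varied together (r = 0.72 to 0.93 over 21 tumors), so they are not separate observations. Their unadjusted p-values by edgeR were 0.000667, 0.000569 and 0.000945, and 13.8% of all genes were under 0.05. DESeq2, which called 92 genes, called these 3 (adjusted p = 0.0275, 0.0236 and 0.0415), while by other alternatives, 25 in all, their adjusted p ranged up to 0.570. With any 1 tumor left out they did not pass by edgeR. The adjusted p was lowest without Control r6 (0.0589 to 0.0614, at -0.77, -0.68 and -0.61) and highest without Control r1 (0.443 to 0.490).

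SNHG6 differed by -0.31 (95% interval -0.62 to 0.01), SNHG12 by -0.22 (-0.52 to 0.09), and GAS5 and SNHG1 by -0.01 (-0.35 to 0.33) and less than that (-0.00495, -0.21 to 0.20). MALAT1 differed by 0.33 (-0.17 to 0.82), KCNQ1OT1 by 0.29 (-0.08 to 0.66) and NEAT1 by -0.06 (-0.48 to 0.35). With GC offsets, which remove each library's trend with exon GC content, the hosts lay at -0.75 to -0.11 and 0 of 10 passed. The median difference over all genes was 0.01 without offsets and 0.00117 with them. The summed level of the human genes listed as stroma markers was 38.2 to 114 CPM with Oxy210 and 71.0 to 165 CPM in Control. LUM made up most of it, with a median of 94.4 CPM over all tumors beside 97.7 CPM for the sum. Only human reads were kept and the stroma came from the mouse host, so this sum does not measure stroma. Whether stromal content differed between the groups was not tested.

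The 2 compounds were compared directly at the same dose, as 1 pair over the 10 genes. All 7 hosts lay above 0 in Oxy186 against Oxy210, beside a median of -0.00678 over all genes. Of these hosts SNHG12 and GAS5 changed sign in 3 and 1 of 25 alternatives. Of the 10 genes 0 passed, as did 0% of 16361 (edgeR, smallest adjusted p = 0.126). The differences were 0.72 for SNHG6 (95% interval 0.27 to 1.17), 0.57 for SNHG5 (0.23 to 0.92), 0.35 for EPB41L4A-AS1 (0.01 to 0.70) and 0.35 for SNHG8 (0.05 to 0.64), with adjusted p-values of 0.876 to 1.00 that leave each of them short of the threshold. These 4 were under an unadjusted p of 0.05, as were 4.06% of all genes. For the others the intervals were -0.29 to 0.47 (GAS5), -0.17 to 0.33 (SNHG1), -0.38 to 0.51 (SNHG12), -0.55 to 0.36 (MALAT1), -0.40 to 0.52 (NEAT1) and -0.40 to 0.28 (KCNQ1OT1), so that differences of these sizes in either direction remain possible. The Oxy210 tumors enter this comparison and the one before it, so their values are not independent.

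**Figure D4:**
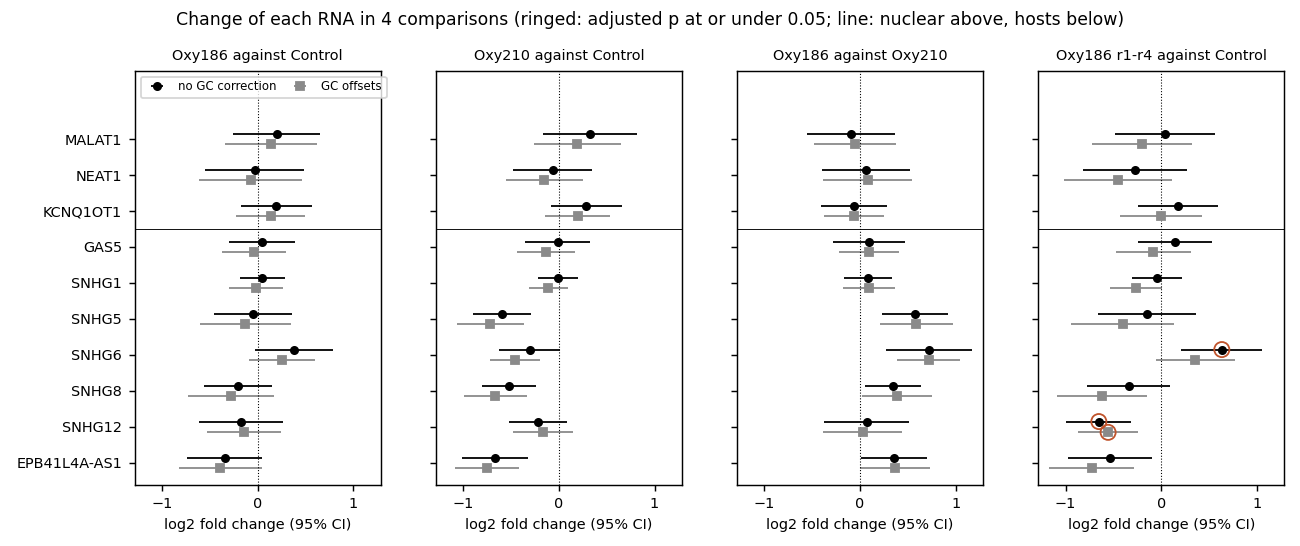
Log2 fold change of each RNA (x axis) with its 95% interval in 4 comparisons, by edgeR without GC correction (black circles) and with GC offsets (gray squares). Rings mark adjusted p at or under 0.05, and the horizontal line divides the nuclear RNAs (above) from the hosts (below). In Oxy210 against Control the 7 hosts lie at -0.67 to -0.00495, in Oxy186 against Oxy210 at 0.07 to 0.72, and the only rings are SNHG6 and SNHG12 in Oxy186 r1-r4.

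The study singled out Oxy186 r1-r4 on a principal component plot of these libraries, so the comparison of Oxy186 r1-r4 with Control rests on tumors chosen from these data, and its p-values are not independent evidence. In it 2 of the 10 genes passed, both hosts, 1 lower and 1 higher, as did 19.7% of 16852 genes (15.0% lower and 4.73% higher). None of the 10 passed the study's threshold, which also asks for a fold change over 2 and was passed by 8.34% of genes. SNHG12 had a log2 CPM of 4.07, 4.57, 4.28 and 4.43 in r1 to r4, against 4.70 to 5.39 in Control and 5.17 to 5.44 in r5-r7. All 4 lay below every Control tumor, as was the case in either direction for 11.7% of genes. It was lower by edgeR (log2 fold change -0.65, SE 0.16, adjusted p = 0.0111) and, with GC offsets, -0.56 (adjusted p = 0.0494). The call with GC offsets was lost without any 1 of r1 to r4 (adjusted p = 0.0670 to 0.122 by edgeR) and with a replicate block added (-0.60, adjusted p = 0.179).

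SNHG6, which had 7.03, 7.64, 8.28 and 7.31 in r1 to r4 against 6.61 to 7.31 in Control, was higher (0.63, SE 0.20, edgeR adjusted p = 0.0362), with 2 of 4 tumors above every Control tumor. Without r3 it came to 0.34 (adjusted p = 0.200) and with GC offsets to 0.36 (adjusted p = 0.343). The call was also lost without r2 or without Control r1, r2, r3, r5 or r6 (adjusted p = 0.0521 to 0.0712), but not without r1, r4, Control r4 or Control r7. EPB41L4A-AS1 differed by -0.54 (adjusted p = 0.0795 by edgeR), and passed without Control r6 (-0.64, adjusted p = 0.0168). The other 4 hosts lay at -0.34 (SNHG8) to 0.14 (GAS5), and the nuclear RNAs at -0.28 (NEAT1), 0.04 (MALAT1) and 0.17 (KCNQ1OT1), and none of these passed. With GC offsets EPB41L4A-AS1 was -0.73 (adjusted p = 0.0647 by edgeR), SNHG8 -0.62 (adjusted p = 0.132), SNHG5 -0.40, SNHG1 -0.26 and GAS5 -0.08. NEAT1 was then -0.45 and MALAT1 -0.20, and none of these passed either.

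Of 18 other long noncoding snoRNA hosts tested in Oxy186 r1-r4, 9 were lower and 0 higher, beside 15.0% and 4.73% of all genes, with a median log2 fold change of -0.53 against 0.01 over all genes. The 4 with the largest changes were SNHG25 (-1.91, adjusted p = 0.0246), SNHG7 (-1.80, adjusted p = 0.00114), SNHG9 (-1.67, adjusted p = 0.00574) and SNHG32 (-1.40, adjusted p = 0.00279), all by edgeR. Their exon GC content was 61.2%, 59.3%, 66.3% and 49.9%, against at most 51.1% in the 7 hosts. With GC offsets, by which 683 of 16852 genes passed, 4 of the 18 passed, SNHG7 (-1.12), SNHG32 (-1.36), SNHG20 (-0.78) and SNHG15 (-0.60). SNHG25 (-1.08, edgeR adjusted p = 0.274) and SNHG9 (-0.34, edgeR adjusted p = 0.711) did not pass. In the 3 comparisons of the labelled groups 0 of the other hosts passed (18, 18 and 17 tested), as did 0% of all genes. The medians of these hosts were -0.15 (Oxy186 against Control), -0.13 (Oxy210 against Control) and 0.08 (Oxy186 against Oxy210). The 2 most abundant, SNHG29 and ZFAS1, differed by -0.26 and -0.20 in Oxy210 against Control (adjusted p = 0.345 and 0.565 by edgeR).

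**Figure D5:**
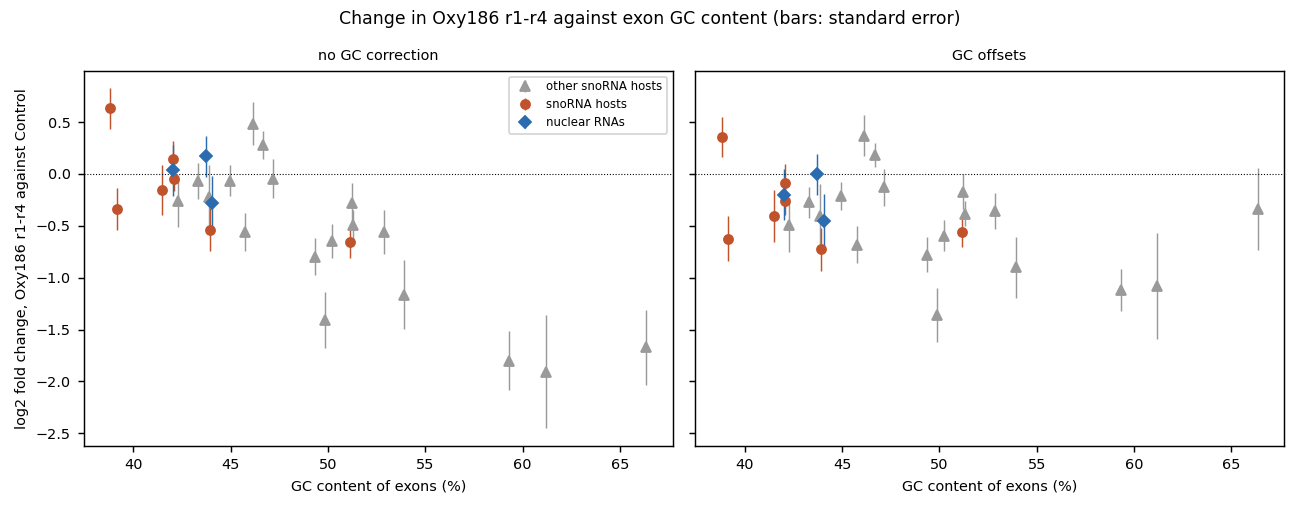
Log2 fold change in Oxy186 r1-r4 against Control (y axis, bars are SE) by exon GC content in percent (x axis) for the 3 nuclear RNAs, the 7 hosts and the 18 other hosts, without GC correction (left) and with GC offsets (right). SNHG25, SNHG7 and SNHG9, at the right end of each panel, lie at -1.91 to -1.67 without correction and at -1.12 to -0.34 with it.

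Genes of the host pathway were counted from lists, and in Oxy186 r1-r4 these counts stand beside the 19.7% of all genes that passed, 15.0% lower and 4.73% higher. Of 8 core snoRNP proteins, which bind the snoRNAs, 0 passed in any of the 4 comparisons, and the most abundant, NOP56 and FBL, differed by 0.01 and -0.12 in Oxy210 against Control. Among 14 protein-coding snoRNA hosts HSPA8 was higher in Oxy186 r1-r4 (0.61, edgeR adjusted p = 0.0312), and 0 passed elsewhere. Of 10 factors of nonsense-mediated decay 2 were lower in Oxy186 r1-r4, SMG5 (-0.61) and UPF1 (-0.64) (edgeR adjusted p = 0.00778 and 0.0329). UPF2 was higher (0.38, edgeR adjusted p = 0.0246). With GC offsets and in the other comparisons 0 of the 10 passed.

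Partners and neighbors of the nuclear RNAs were counted in the same way, beside the same 19.7% of all genes in Oxy186 r1-r4. With GC offsets 683 of 16852 genes passed there, so 0 passing in a short list is not particular to it. Of 12 paraspeckle proteins, RBMX (0.48), TARDBP (0.39) and CPSF6 (0.35) were higher and RBM14 (-0.64) lower in Oxy186 r1-r4 (edgeR adjusted p = 0.0178, 0.0343, 0.0437 and 0.0163), and of 10 speckle and SR proteins 0 passed. With GC offsets only PSPC1 passed (-0.53, adjusted p = 0.0408), which was named after its value was seen. Of the 4 tested genes of the KCNQ1OT1 domain, TSSC4 (-1.42), PHLDA2 (-1.20) and SLC22A18 (-1.20) were lower (adjusted p = 0.00182, 0.00913 and 0.00226), with exon GC contents of 62.8% to 64.5%, and with GC offsets none passed. Among the 10 other nuclear long noncoding RNAs TUG1 was higher (0.35, adjusted p = 0.039), and among 8 genes of the nuclear exosome and exonucleases RBM7 (0.66, adjusted p = 0.00699), and 0 of either list passed with GC offsets. In the 3 labelled comparisons 0 genes of these lists passed, as did 0% of all genes.

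As a description of the 2 kinds of RNA together, the mean log2 CPM of the 3 nuclear RNAs minus that of the 7 hosts was 0.85 ± 0.35 (SD, n = 7) in Control, 1.05 ± 0.45 (SD, n = 7) with Oxy186 and 1.37 ± 0.35 (SD, n = 7) with Oxy210. It ran from 0.41 to 1.29, from 0.47 to 1.52 and from 0.91 to 1.73, so the groups overlapped. Oxy210 exceeded Control by 0.52 in the mean, and Oxy186 by 0.20. As the log2 ratio of summed CPM of each kind, in which the abundant genes weigh most, the means were 0.88 ± 0.45 (SD) in Control, 0.90 ± 0.63 with Oxy186 and 1.22 ± 0.35 with Oxy210, so the difference of Oxy186 from Control was near 0 on this scale. The ratio of NEAT1 to MALAT1 reads was 2.95 to 3.64 in Control (median 3.45), 1.86 to 3.55 with Oxy186 (median 2.65) and 1.89 to 3.27 with Oxy210 (median 2.63), again with overlap. No test was run on either value.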

How the data were processed

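RNA was sequenced from 21 xenograft tumors (Control, Oxy186 and Oxy210, 7 each, grouped by the sample labels). Per the labels and the study's methods, the authors trimmed reads with Trimmomatic 0.39, aligned them with STAR 2.7.6a to GRCh38.p13 combined with GRCm39, kept uniquely mapped human reads and made the deposited counts per gene with featureCounts (Subread 2.0.1). Whether RNA was selected by poly(A) or by depletion of ribosomal RNA, and whether reads were counted by strand, is not given in the sources used here. The deposited log2 CPM values were checked against the counts, from which they were recomputed within 4.97e-14 over 16852 genes. Levels here are log2 CPM with a prior count of 2.

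Group differences were tested from the counts with edgeR 4.0.16 in R 4.3.3 (filterByExpr, TMM, quasi-likelihood test, Benjamini-Hochberg over all genes tested, threshold 0.05), each comparison on its own groups. Alternatives were DESeq2 1.42.0, limma voom (limma 3.58.1), library size alone, a count minimum of 10, GC offsets (spline with 4 degrees of freedom, 99.8% of genes with a GC value), a replicate block and leaving out each tumor, and the scripts were tested on simulated data. Relations used scipy 1.17.1 with 100000 permutations. GENCODE 44 matched 60481 of 60651 gene IDs. Total counts were 13787493 to 17865119 per tumor, replicates of a group differed by more than counting error (chi-square of 12.1 to 149 per degree of freedom), so that the spread between tumors limits the precision more than depth does, and the labels do not say more about the replicates than separate tumors.

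The genes and lists were chosen with earlier results of these data known. All 10 genes are named throughout, from each list up to 4 passing genes of largest change or, with none passing, up to 2 of highest level, and for likeness the 5 of highest r, of which 1 is not reported here. Replicate numbers did not pair the tumors (correlations of deviations -0.398 to 0.329).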

Additional observations from a re-analysis of the deposited data

Results flagged for a closer look

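SNHG8 in Oxy210 r6 was the only value far from the rest of its group, with a log2 CPM of 5.63 against 5.45 in the nearest Oxy210 tumor. The search covered 30 sets of 7 tumors (10 genes in 3 groups), of which chance flags about 1 in 20, and 1.5 would be expected.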

How the results depend on the processing

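KCNQ1OT1 had the fewest reads (85 to 244), and no call was made in the labelled groups by edgeR. In Oxy210 against Control DESeq2 called 3 of the 10 genes and the other alternatives 0. For KCNQ1OT1 in Oxy186 against Oxy210 DESeq2 gave no adjusted p. In Oxy186 r1-r4 against Control the 2 calls became 1 with limma voom, 1 with GC offsets (683 genes in all against 3323), 1 with the replicate block (2373 genes), 0 with the replicate block with GC offsets (68 genes, SNHG12 -0.60, adjusted p = 0.179) and 0 at the study's threshold (1406 genes). Leaving out 1 tumor gave 1 to 2 calls. GC offsets without 1 of Oxy186 r1-r4, an alternative chosen after seeing the data, gave 0 calls each time (708, 478, 355 and 262 genes), with SNHG12 at an adjusted p of 0.0670 to 0.122 by edgeR. The causes were not tested. The numbers share only a label, since no tumor correlated best with its own number.

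Changes of sign concerned uncalled values. In Oxy186 against Control NEAT1 was 0.0178 by library size alone, GAS5 and SNHG1 were -0.0392 and -0.0187 with GC offsets and -0.0401 and -0.0356 with the replicate block with GC offsets, and leaving out 1 tumor gave NEAT1 -0.19 to 0.12, SNHG5 -0.15 to 0.0510 and GAS5 -0.0387 to 0.14. In Oxy210 against Control GAS5 and SNHG1 were 0.0384 and 0.0446 by library size alone, and leaving out 1 tumor gave GAS5 -0.13 to 0.0578, SNHG1 -0.0576 to 0.0328 and NEAT1 -0.17 to 0.0482. In Oxy186 against Oxy210 NEAT1 was -0.00537 and SNHG12 -0.00327 with the replicate block with GC offsets, and leaving out 1 tumor gave MALAT1 -0.18 to 0.0513, KCNQ1OT1 -0.12 to 0.0192, NEAT1 -0.10 to 0.18, SNHG12 -0.0472 to 0.20 and GAS5 -0.00372 to 0.21. In Oxy186 r1-r4 MALAT1 was -0.20 with GC offsets, -0.0911 with the replicate block and -0.36 with both, GAS5 -0.0832, -0.00339 and -0.27, and KCNQ1OT1 -0.00344 with GC offsets and -0.0926 with both. Leaving out 1 tumor there gave MALAT1 -0.0748 to 0.20, GAS5 -0.0203 to 0.31, SNHG1 -0.11 to 0.0554 and SNHG5 -0.43 to 0.0137. GC offsets without Oxy186 r1 to r4 in turn gave MALAT1 -0.19, -0.0743, -0.23 and -0.33, GAS5 -0.0409, -0.16 and -0.20 (r1 to r3), and KCNQ1OT1 -0.10, -0.00763 and -0.0195 (r1, r2 and r4).

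The relations of the 10 genes to the GC slope rose from 0 to 2 without the 2 most extreme slopes (SNHG5 r = 0.63, SNHG8 r = 0.60), also chosen after seeing the data. With the longest transcript, levels per kb moved to 6.75 for GAS5, 6.12 for SNHG6, 5.84 for SNHG5 and 3.81 for SNHG12.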
